A study of Mus musculus with 6 samples.

Results

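The 10 genes described here encode proteins that divide or join mitochondria. Mtfp1, Dnm1l, Fis1, Mff, Mief1 and Mief2 act in fission, and Mfn1, Mfn2, Opa1 and Oma1 act in fusion or in its control. They are 10 of the 16627 genes in the deposited count table, and all 10 passed the filter on low counts. The set was chosen by the level of Mtfp1, which was among the genes furthest below control in an earlier analysis of this same comparison. The other 9 genes were taken for their function. The values of Mtfp1 are therefore given as a description with no test.

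The samples were inguinal white adipose tissue (iWAT), a fat depot under the skin of the mouse, from animals kept at 4 °C for 6 hours. Of the 6 libraries, 3 came from mice that lacked Celf1 in adipocytes only (Celf1 AKO) and 3 from fl/fl littermates that kept it (Flox control). Celf1 encodes an RNA-binding protein that acts on the splicing and decay of mRNAs, and the series asked what it does in the beiging of this depot. All 6 libraries came from cold-exposed mice, so the comparison is between genotypes in the cold and holds no sample at room temperature. The labels name neither the Cre driver nor the age and sex of the mice, and do not say that each library came from a separate animal, so the spread behind each p-value may be technical.

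Mitochondria form a network that is cut by fission and joined by fusion. In fission, the dynamin-related GTPase made from Dnm1l is drawn from the cytosol to the outer membrane by receptors, which Mff, Mief1, Mief2 and Fis1 encode, and it constricts the organelle there, while Mtfp1 encodes an inner membrane protein that takes part in division. In fusion, the mitofusins Mfn1 and Mfn2 tether and join the outer membranes and Opa1 joins the inner membranes and shapes the cristae. The protease Oma1 cleaves Opa1 under stress, which limits fusion. In brown and beige adipocytes, adrenergic stimulation by cold is known to be followed by fragmentation of mitochondria.

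Celf1 stood at 52.5, 49.8 and 63.0 CPM (counts scaled to a fixed library size) in knockout replicates 1, 2 and 3, whereas the controls held 126, 114 and 144 CPM. The knockout libraries, which hold RNA of other cells of the tissue as well, lay at 43.1% of control (log2 fold change -1.21, SE 0.14). The edgeR adjusted p was 0.122, 0.0174 without Celf1 AKO replicate 3, and 0.166 to 0.697 when any other single library was left out. DESeq2 gave an adjusted p of 1.23e-09. Library totals ran from 54835348 to 64979443 counts, so that 1 CPM stood for 54.9 to 67.8 counts. Adipoq, the adiponectin gene and a marker of mature adipocytes, was at 2591 to 2790.2 CPM in Celf1 AKO and at 2443 to 2566 CPM in Flox control. The summed level of 8 adipocyte markers was 57089.5 to 68453 CPM against 61119 to 70019 CPM, so the groups overlapped. In whole tissue, fewer cells of a type and less RNA per cell cannot be told apart.

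Markers of other cell types differed between the libraries. The 8 brown and beige adipocyte markers summed to 202 to 451 CPM in Celf1 AKO and 887 to 964 CPM in Flox control, 7 of them with a negative log2 fold change. Ucp1 alone gave 461 to 567 CPM of the control sums and 4.86 to 79.6 CPM of the knockout sums. The marker that went the other way was Ppargc1a, with a log2 fold change of 0.85. All 6 endothelial markers had positive log2 fold changes (sums of 912 to 1098 CPM against 484 to 746 CPM), as had all 6 Schwann cell and nerve markers (431 to 597 against 241 to 310 CPM), all 6 neutrophil markers (41.4 to 142 against 24.6 to 45.7 CPM) and all 6 erythrocyte markers (557 to 1271 against 351 to 588 CPM). The neutrophil and erythrocyte sums overlapped between the groups, and both were highest in Celf1 AKO replicate 3. Acta1, the only one of 6 skeletal muscle markers among the genes analysed, stood at 1039 CPM in Celf1 AKO replicate 3 and at 23.1 to 75.2 CPM in the other 5 libraries. Sums also overlapped for the macrophage (327 to 964 against 601 to 785 CPM), preadipocyte and fibroblast (3797 to 6475 against 4386 to 5984 CPM), smooth muscle (539.7 to 626 against 386 to 619.6 CPM) and B and T cell lists (3 of 6 in the table, 2.13 to 4.66 against 2.46 to 3.60 CPM). The epithelial list (4 of 6 in the table) was at 8.61 to 21.2 against 5.14 to 8.04 CPM. The edgeR test called none of these markers, and of all 16366 genes tested it called 0 lower and 2 higher. At an unadjusted edgeR p under 0.05, 5 of the 8 brown and beige markers were lower and 1 was higher. Higher at that cut were 5 endothelial, 6 Schwann cell and nerve, 4 neutrophil, 5 erythrocyte and 2 epithelial markers and 1 B and T cell marker. Of all genes tested, 6.17% were lower at that cut and 6.75% were higher. The part of these markers in the results that follow was not tested.

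Mtfp1 (ENSMUSG00000004748; GRCm38 chromosome 11, 4091480 to 4095445, minus strand) was at 5.53, 5.66 and 7.41 CPM in knockout replicates 1, 2 and 3, whereas the controls held 16.8, 17.5 and 18.1 CPM. These levels rested on 304, 346 and 482 counts in Celf1 AKO and on 980, 1189 and 1180 counts in Flox control. The highest knockout library lay far below the lowest control, and the mean was 35.5% of control. The log2 fold change was -1.49 (SE 0.17). Of the 10 genes, Mtfp1 lay furthest from control, and it ranked 26 by the most negative log2 fold change among 13082 genes with at least 1 CPM, the value the set was chosen by. No exon of Mtfp1 overlapped an exon of another gene in GENCODE M21, so its reads could not be shared with an overlapping gene of that annotation.

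The region before its start site is shown because Mtfp1 is the member with the largest difference, beside that of Mief2, the next in size and also on chromosome 11. Each is the 250 bases before the RefSeq start, on GRCm38.p6, 5′ to 3′ on the gene's own strand. Capitals mark matches, on either strand, to 2 common promoter motifs, the CCAAT box (CCAAT) and the GC box (GGGCGG).
Mtfp1, chr11:4095432-4095681, minus strand: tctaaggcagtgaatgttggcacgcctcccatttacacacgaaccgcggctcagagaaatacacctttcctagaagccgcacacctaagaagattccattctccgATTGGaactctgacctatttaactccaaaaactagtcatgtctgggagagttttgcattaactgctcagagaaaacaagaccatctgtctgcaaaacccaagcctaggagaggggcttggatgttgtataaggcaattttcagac
Mief2, chr11:60728148-60728397, plus strand: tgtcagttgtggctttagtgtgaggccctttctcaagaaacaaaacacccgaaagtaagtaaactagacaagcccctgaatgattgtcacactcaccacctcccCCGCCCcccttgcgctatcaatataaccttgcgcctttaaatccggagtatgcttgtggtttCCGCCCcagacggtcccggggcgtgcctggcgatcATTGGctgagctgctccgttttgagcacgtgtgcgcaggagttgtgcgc

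The Mtfp1 window held 1 CCAAT box and 0 GC boxes, and the Mief2 window held 1 CCAAT box and 2 GC boxes. Over all 32851 RefSeq promoter windows of this length, 33.8% held a CCAAT box and 32.7% a GC box. Neither window held the binding motif of the estrogen-related receptors (TCAAGGTCA, in 0.387% of all windows), of NRF1 (GCGCANGCG, 5.16%) or of the cAMP-responsive factors (TGACGTCA, 1.55%), all searched on both strands. Mtfp1 had 6 CpG dinucleotides in these bases and Mief2 had 14. The matches describe letters only, and the motifs were chosen after the values had been seen.

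**Figure D1:**
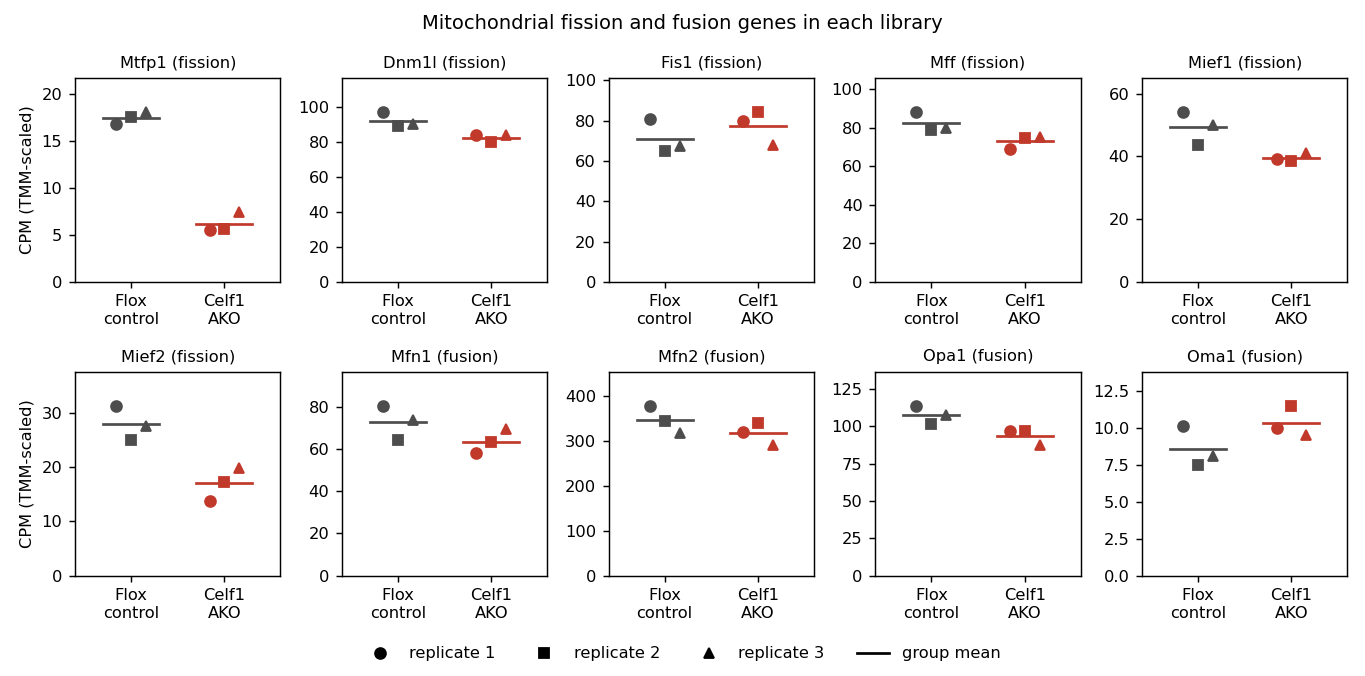
CPM, scaled by TMM (vertical axes, each from 0), of the 10 genes in the 3 Flox control (grey) and 3 Celf1 AKO (red) libraries, with the marker shape giving the replicate and lines giving group means. Mtfp1 lies at 16.8 to 18.1 CPM in control and at 5.53 to 7.41 CPM in knockout, with a wide gap, Mief2 separates with a narrower gap, and the other genes lie close together or overlap.

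Mief2 and Mief1 encode a pair of related outer membrane receptors that recruit the fission GTPase. Mief2 (ENSMUSG00000018599; chromosome 11, 60728398 to 60732951, plus strand) was at 13.8, 17.3 and 19.8 CPM in Celf1 AKO and at 31.2, 25.003 and 27.6 CPM in Flox control. All 3 knockout libraries lay below all 3 controls, at 60.7% of control on average. The log2 fold change was -0.72 (SE 0.17; 95% interval -1.10 to -0.34) and edgeR gave an unadjusted p of 0.00270. Its adjusted p, 0.246, missed 0.05. Without Celf1 AKO replicate 3 the log2 fold change was -0.85 and the edgeR adjusted p 0.0410, and DESeq2 on all 6 libraries gave an adjusted p of 0.0201, so the call rests on the tool and on that library.

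Mief1 (ENSMUSG00000022412; chromosome 15, 80234018 to 80253371, plus strand) was at 39.0, 38.5 and 41.2 CPM in Celf1 AKO and at 54.0, 43.6 and 49.996 CPM in Flox control. The groups did not overlap, and the knockout mean was 80.5% of control. The log2 fold change was -0.31 (SE 0.11; 95% interval -0.58 to -0.05; edgeR adjusted p = 0.333).

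The remaining fission genes differed less. Dnm1l, the GTPase itself (ENSMUSG00000022789; chromosome 16, 16312230 to 16358959, minus strand), was at 83.8, 79.9 and 84.0 CPM in Celf1 AKO against 97.0, 89.0 and 90.5 CPM in Flox control, without overlap. Its log2 fold change was -0.16 (SE 0.09; 95% interval -0.38 to 0.06; edgeR adjusted p = 0.510). Mff, a tail-anchored receptor of the GTPase (ENSMUSG00000026150; chromosome 1, 82724890 to 82752394, plus strand), was at 69.1, 74.4 and 75.1 CPM against 87.9, 78.9 and 80.0 CPM, again without overlap. Its log2 fold change was -0.17 (SE 0.10; 95% interval -0.40 to 0.05; edgeR adjusted p = 0.490). For both genes the interval left out a halving and a doubling of the level.

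Fis1, another outer membrane receptor of fission (ENSMUSG00000019054; chromosome 5, 136953275 to 136966234, plus strand), was the only fission gene of the set with a positive log2 fold change. It was at 80.0, 84.1 and 67.7 CPM in Celf1 AKO and at 80.7, 64.8 and 67.4 CPM in Flox control, with overlapping groups. The log2 fold change was 0.12 (SE 0.13; 95% interval -0.18 to 0.43; edgeR adjusted p = 0.720). Celf1 AKO replicate 3 lay with 2 of the controls, and Flox control replicate 1 lay with the other knockout libraries.

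Among the fusion genes, Mfn2, the more abundant mitofusin, which also links mitochondria to the endoplasmic reticulum (ENSMUSG00000029020; chromosome 4, 147873599 to 147904704, minus strand), was at 318, 339 and 290.2 CPM in Celf1 AKO and at 376, 343 and 316 CPM in Flox control. Mfn1 (ENSMUSG00000027668; chromosome 3, 32529465 to 32579239, plus strand) was at 57.9, 63.1 and 69.3 CPM against 80.3, 64.2 and 73.8 CPM. Both mitofusins overlapped between the groups. The log2 fold changes were -0.13 for Mfn2 (SE 0.13; 95% interval -0.42 to 0.16; edgeR adjusted p = 0.697) and -0.20 for Mfn1 (SE 0.12; 95% interval -0.48 to 0.09; edgeR adjusted p = 0.532).

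Opa1, the inner membrane fusion GTPase (ENSMUSG00000038084; chromosome 16, 29579334 to 29654884, plus strand), was at 96.7, 96.9 and 87.5 CPM in Celf1 AKO and at 114, 102 and 108 CPM in Flox control. The groups did not overlap. The log2 fold change was -0.20 (SE 0.10; 95% interval -0.44 to 0.04; edgeR adjusted p = 0.453). Oma1, its protease (ENSMUSG00000035069; chromosome 4, 103313812 to 103371868, plus strand), was at 10.01, 11.5 and 9.51 CPM against 10.1, 7.48 and 8.08 CPM. Flox control replicate 1 lay among the knockout libraries. The log2 fold change was 0.27 (SE 0.18; 95% interval -0.15 to 0.69; edgeR adjusted p = 0.557).

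Counted together, 0 of the 9 genes other than Mtfp1 passed the edgeR test over all 16366 genes tested, where 0% of genes were called lower. At an unadjusted edgeR p under 0.05, 2 of the 9, Mief1 and Mief2, were lower, against a background of 6.17% of all genes, and 0 were higher, against 6.75%. Limma-voom called 0 of the 9, and 0 of all 16366 genes it tested. DESeq2 called 1, Mief2, where it called 0.902% of 16627 genes lower. Leaving out Celf1 AKO replicate 3, edgeR also called 1, Mief2, against 1.76% of genes called lower in that fit. Of the 9 genes, 5 lay lower in all 3 knockout libraries without overlap (Mief2, Mief1, Dnm1l, Mff and Opa1), where 9.51% of all genes did. The median log2 fold change of the 9 was -0.17 and that of all genes tested was -0.02. The 9 genes act in 1 process and may vary together, so they are not independent of each other.

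**Figure D2:**
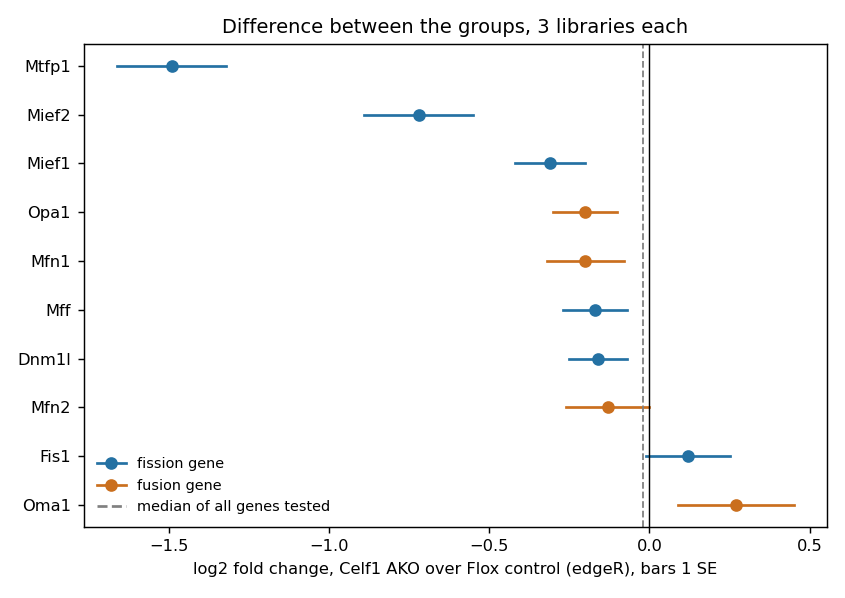
Log2 fold change of each gene, Celf1 AKO over Flox control, fitted by edgeR on 3 libraries per group, with bars of 1 SE. Colours give fission and fusion genes, and the dashed line is the median of all genes tested (-0.02). Mtfp1 at -1.49 and Mief2 at -0.72 stand to the left of the other 8 genes, which lie between -0.31 and 0.27.

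Levels of different genes can be compared only per length of transcript, for which the authors' FPKM values (fragments scaled to gene length and depth) were used. In Flox control the order from the highest was Mfn2 (79.5 ± 3.86 FPKM), Fis1 (74.7 ± 4.30), Dnm1l (22.7 ± 0.357), Mff (21.0 ± 0.0617), Opa1 (17.3 ± 0.475), Mfn1 (15.9 ± 1.10), Mtfp1 (12.4 ± 1.13), Mief2 (11.1 ± 0.642), Mief1 (9.67 ± 0.650) and Oma1 (4.45 ± 0.441; FPKM, SD, n = 3 for each). The ranges over libraries of Mfn2 and Fis1 overlapped, as did those of Mtfp1 and Mief2, so these neighbours were not ordered beyond their spread. In Celf1 AKO the ranges of Dnm1l and Mff overlapped, as did those of Opa1 and Mfn1. Mtfp1 was lowest there of the 10, at 4.39 ± 0.925 FPKM (SD, n = 3), and its range overlapped that of Oma1, next above it at 5.35 ± 0.272 FPKM. Mief2 stood at 6.70 ± 1.35 FPKM, and its range overlapped those of Mief1 (7.76 ± 0.633) and Oma1. Fis1 (80.8 ± 5.73 FPKM) stood above Mfn2 (72.2 ± 2.37) there without overlap. With CPM over the summed exon length of the annotation in place of FPKM, Mfn2 was above Fis1 in both groups, Mtfp1 was again last in Celf1 AKO and Mff stood at the eighth place in Flox control.

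The share of Mtfp1 in the fission genes was small in either genotype. It made up 7.16%, 8.80% and 8.69% of the summed FPKM of the 6 fission genes in the controls and 2.81%, 2.75% and 3.96% in the knockouts. The summed FPKM was 138 to 139.8 for the fission genes in Celf1 AKO and 147 to 155 in Flox control, and 105 to 107 against 114 to 119 for the fusion genes. Their ratio was 1.301 ± 0.0139 in Celf1 AKO and 1.29 ± 0.0436 in Flox control (SD, n = 3 each), and the groups overlapped. The largest terms of the sums were Fis1 (74.7 FPKM in Flox control) and Mfn2 (79.5 FPKM). The fusion sum includes Oma1, which limits fusion, so the ratio is not a measure of the balance between the processes.

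Each gene was also set against 13 housekeeping genes of the outer membrane, protein import and the matrix (such as Tomm20, Vdac1, Hspd1 and Cs) within the same library. The mean log2 level of these 13 was 7.27, 7.42 and 7.49 in Celf1 AKO and 7.82, 7.59 and 7.77 in Flox control. On this scale Mtfp1 was at -4.68, -4.80 and -4.50 in Celf1 AKO and at -3.70, -3.42 and -3.56 in Flox control, a difference of -1.10 (log2). Mief2 was at -3.43, -3.27 and -3.14 against -2.83, -2.92 and -2.96, a difference of -0.38. For both, all knockout libraries stayed below all controls.

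The other 8 genes did not lie below control on that scale. Oma1 (0.60), Fis1 (0.46), Dnm1l (0.18), Mff (0.16) and Mfn1 (0.14) lay higher in Celf1 AKO without overlap, and Mfn2 (0.21), Opa1 (0.13) and Mief1 (0.03) overlapped (log2 differences). The reference itself was lower in Celf1 AKO without overlap (-0.33), which raises every gene on this scale. The share of all genes that lay higher or lower without overlap was not computed on this scale, nor with the other references below. In CPM, Dnm1l and Mff were lower without overlap, and Oma1, Fis1 and Mfn1 overlapped. With 10 genes of mitochondrial DNA upkeep as the reference, Mtfp1 (-1.09) and Mief2 (-0.37) were again lower without overlap and only Oma1 (0.61) was higher without overlap. That reference too was lower in Celf1 AKO without overlap (-0.35), which raises every gene set against it. With the 8 adipocyte markers as the reference, Mtfp1 was at -1.40 and Mief2 at -0.68, Mief1 (-0.27) and Mff (-0.14) were lower without overlap too, and none was higher without overlap. The direction for Dnm1l, Mff, Mfn1, Mfn2, Opa1 and Mief1 thus depends on the reference, while that for Mtfp1, Mief2, Fis1 and Oma1 was the same with all 3.

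**Figure D3:**
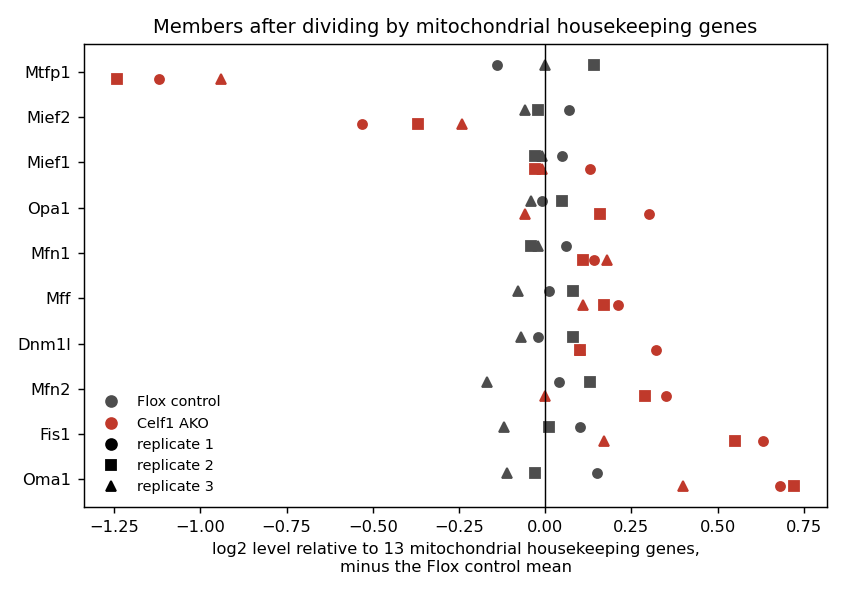
Log2 level of each gene relative to the mean of 13 mitochondrial housekeeping genes of the same library, minus the Flox control mean (horizontal axis), for each Flox control (grey) and Celf1 AKO (red) library, with the marker shape giving the replicate. Mtfp1 and Mief2 lie left of all controls, whereas Oma1 and Fis1 lie right of them.

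Other genes of mitochondrial form and upkeep were mostly lower by small amounts. Of 83 tested genes in 8 further lists, 66 had a negative log2 fold change (median -0.20), where 52.5% of all genes tested did. EdgeR called 0, and at an unadjusted p under 0.05 the counts were 25 lower and 0 higher, against the 6.17% of all genes noted above. Limma-voom called 0. DESeq2, which tested 84 of them, called 2, Miga2 and Polrmt, both lower, where it called 0.902% of all genes lower. Without Celf1 AKO replicate 3, edgeR called 7, all lower, against 1.76% of all genes: Afg3l2, Miga2, Dnajc11, Rhot2, Tomm40, Polrmt and Twnk. In CPM, 34 of the 83 lay lower without overlap, where 9.51% of all genes did, and 3 higher, where 7.81% did.

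Of 13 tested factors that bear on fission, 9 had a negative log2 fold change (median -0.11). Akap1, which anchors protein kinase A at the outer membrane, was at 80.8 ± 18.8 against 119.7 ± 17.7 CPM (SD, n = 3 each; log2 fold change -0.57). Mul1, an outer membrane ubiquitin and SUMO ligase, and Pgam5, a phosphatase, both had -0.36. Gdap1, the other listed gene, did not pass the filter on low counts. Of 13 factors of fusion and inner membrane quality control, 12 were negative (median -0.20). Miga2, which promotes fusion at the outer membrane, was at 125 ± 29.5 against 207 ± 20.003 CPM, a log2 fold change of -0.73 (SE 0.18; edgeR adjusted p = 0.251). Phb2, a prohibitin that holds Opa1 processing in check, had -0.39, and Opa3 had -0.44.

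All 12 genes of the cristae organizing system and its outer membrane partners were negative (median -0.25), with Apoo at -0.51, Dnajc11 at -0.52 and Immt, the core subunit, at -0.35. Of 5 genes of mitochondrial transport along microtubules, 4 were negative (median -0.26), with -0.35 for Rhot1 and -0.59 for Rhot2, the GTPases that link mitochondria to motors, and -0.26 for the adaptor Trak2. All 13 housekeeping genes were negative (median -0.31), among them Timm44 (-0.42), Tomm22 (-0.35) and Tomm70a (-0.45). Of 10 genes of mitochondrial DNA maintenance and transcription, 9 were negative (median -0.35), with Polrmt, the mitochondrial RNA polymerase, at -0.55, Tfam, which packages the DNA, at -0.37, and the helicase Twnk at -0.67. None of these passed the edgeR test on all 6 libraries.

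Mitophagy genes and the stress relay that starts at Oma1 had no common direction. Of 10 mitophagy genes 4 were negative and 6 positive (median 0.08). Sqstm1, an autophagy receptor, had a log2 fold change of 0.22 and Pink1, a kinase that marks damaged mitochondria, had 0.17. Of 7 relay genes 3 were negative and 4 positive (median 0.01), led by Chac1 (0.92), Trib3 (0.72) and Atf4 (0.38). Neither list had a member with an unadjusted edgeR p under 0.05.

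**Figure D4:**
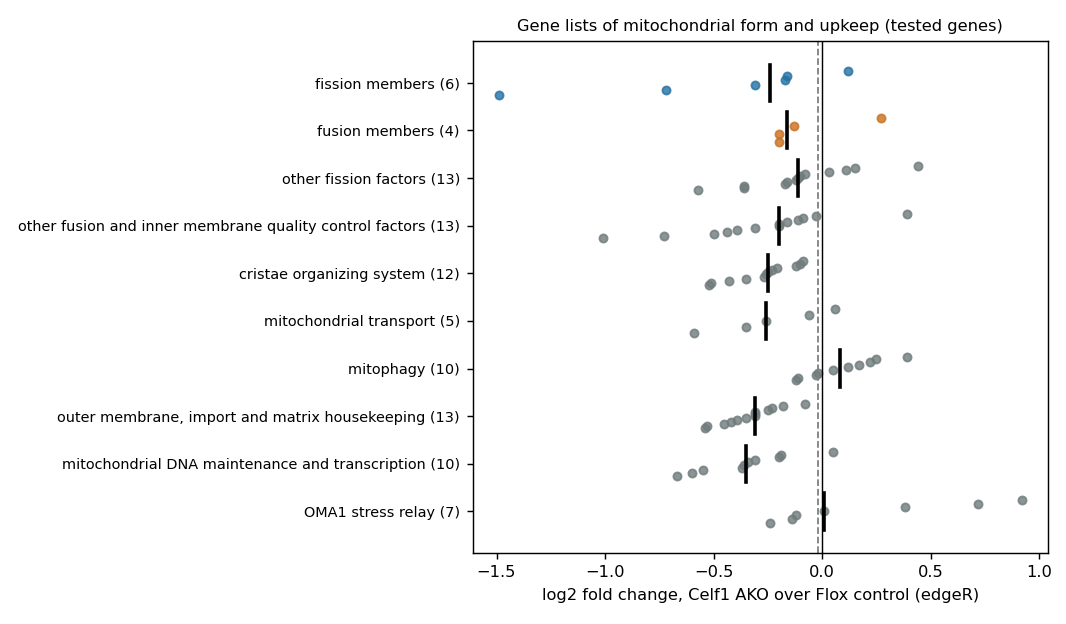
Log2 fold change of every tested gene (points), Celf1 AKO over Flox control, by list, with the number tested in brackets and a black bar at each list's median. Grey points are the 83 further genes, blue and orange points the fission and fusion genes, and the dashed line is the median of all genes tested. Most points of the cristae, housekeeping and DNA maintenance lists lie between -0.7 and 0, and Mtfp1 at -1.49 lies left of all others.

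The genes next to Mtfp1 on chromosome 11 had log2 fold changes from -0.59 to 1.79. Among the 5 tested genes on each side, the nearest was Sec14l2, 1.59 kb away, with a mean of 0.577 CPM in the knockouts against 0.589 CPM in the controls. The groups overlapped for Tcn2 (log2 fold change -0.04), Pes1 (-0.03), Rnf215 (-0.14), Ccdc157 (0.06) and Sf3a1 (-0.25), all above 10 CPM on average. Slc35e4 (18.4 against 12.6 CPM; 0.55) and Gal3st1 (0.666 against 0.193 CPM; 1.79), a sulfotransferase of myelin lipid synthesis, were higher without overlap. The lowest value, -0.59, was that of the microRNA gene Mir3060, which rested on 4 to 28 counts a library, and Sec14l4 had 0.30 below 1 CPM on average, both with overlapping groups. None of the 10 neighbours passed the edgeR test, which called 0 lower and 2 higher of 16366 genes. Slc35e4 and Gal3st1, 2 of the 10, were higher at an unadjusted edgeR p under 0.05, against 6.75% of all genes. The same 2 were higher without overlap, where 7.81% of all genes were.

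Across the 6 libraries, the genes whose log2 CPM was most like that of Mtfp1 were Tefm (Pearson r 0.993), which acts in elongation of mitochondrial transcripts, Fuom (0.992), Rsad1 (0.991), Kbtbd4 (0.990) and Celf1 itself (0.988), out of 13081 genes with at least 1 CPM on average. After the group means were removed, the correlations were 0.846, 0.688, 0.678, 0.887 and 0.747 in the same order. Of all these genes, 427 had an r above 0.9 with Mtfp1. The 6 points share the gap between the genotypes, so r mostly shows which genes have a gap in the same direction and little spread beside it. The gap enters r only relative to the spread within the groups, so a gene with a smaller log2 fold change can also have a high r. The log2 fold changes of these 5 genes were -0.42, -0.64, -0.46, -0.71 and -1.21 in the same order, against -1.49 for Mtfp1. Within the set, Mief2 was most like Mtfp1 (r 0.93, and 0.61 without the group means). For Dnm1l, Mief1 and Mff r was 0.86, 0.85 and 0.83, and without the group means 0.08, 0.19 and 0.22. Mfn1 had 0.69 and then 0.46, whereas Opa1 went from 0.74 to -0.80 and Mfn2 from 0.42 to -0.74. Fis1 had -0.53 and then -0.79, and Oma1 had -0.73 and then -0.49.

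CELF1 is known to bind GU-rich elements in the 3′ untranslated regions of mRNAs, of which the classic form holds TGTTTGT in 2 overlapping copies that start 4 bases apart. The longest annotated 3′ untranslated region of each of the 10 genes was searched for it on the sense strand. None held the double form, which 4.10% of 14138 genes in the table did. A single TGTTTGT was found in Mief1, Mfn2 and Opa1, once in each, and in none of the other 7 genes, Mtfp1 (747 bases searched) and Mief2 (981 bases) among them, whereas 29.4% of all genes held at least 1. The sites are shown, with the motif in capitals, because they are the only such matches in the set (GENCODE M21 transcripts, GRCm38).
Mief1, chr15:80250918-80250938, plus strand: gtctcacTGTTTGTttctatg
Mfn2, chr4:147874961-147874981, minus strand: attgccaTGTTTGTctcagaa
Opa1, chr16:29652041-29652061, plus strand: tgagtcgTGTTTGTggtggca

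These 3 genes had log2 fold changes of -0.31, -0.13 and -0.20, and the 7 without a match ran from -1.49 to 0.27. A match describes letters and not binding, and its absence says only that this motif is not in these bases.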

How the data were processed

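Libraries were made from mRNA isolated out of Trizol-prepared RNA, per the labels' protocols. HISAT2, RSEM 1.3.1, GRCm38 and mm10 appear, without their roles, in the submitters' processing notes. The authors deposited whole-number read counts for 16627 Ensembl genes, and FPKM values beside them, which tested as the count over 1 length per gene and 1 factor per library to within 0.0160%. How genes were counted by strand is not given in the sources used here: Dnm1l and Mff share 243 and 195 exon bases with antisense genes, and Mief1 shares 213 with an overlapping gene, so reads there cannot be told apart. Names and positions came from GENCODE M21 (16528 identifiers matched, 99 did not).

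Counts were tested with edgeR 4.0.16 (R 4.3.3; quasi-likelihood, TMM, robust, default filter: 16366 genes tested, 261 removed), with a genotype term alone, p-values Benjamini-Hochberg adjusted over all genes and called under 0.05. CPM are TMM-scaled, log2 levels are log2(CPM + 0.5), SE is the fold change over the root of F, and 95% intervals use the test's degrees of freedom. The procedure was tested on simulated data. Alternatives were RLE, upper-quartile and library-size scaling, 2 filters, DESeq2 1.42.0, limma-voom (limma 3.58.1), limma on log2(FPKM + 1) and log2(FPKM + 0.1), the replicate block and leaving out each library. No 2 libraries agreed within sampling noise (chi-square over degrees of freedom at least 48.0). The members, lists and the rule for named genes (the 10 members and Celf1, the 3 genes of smallest p in each further list, the 5 genes most like Mtfp1 and its 10 neighbours) were chosen with earlier results of these data known; other named genes, the FPKM ratios and the promoter motifs were chosen after their values were seen. One gene that this rule names is not reported here.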

Additional observations from a re-analysis of the deposited data

How the results depend on the processing

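The log2 fold changes of all 10 genes kept their sign under all 17 alternatives. That of Mtfp1 ran from -1.64 to -1.33 and that of Mief2 from -0.85 to -0.55. The count of the 9 other members called by edgeR, 0, became 1 with DESeq2, and 0 to 1 when single libraries were left out. The 83 further genes gave 2 calls with DESeq2 and 0 to 7 when single libraries were left out, the 7 without Celf1 AKO replicate 3. In these 2 counts the other 15 alternatives each gave 0. Over all genes DESeq2 called 150 lower and 344 higher, and edgeR without Celf1 AKO replicate 3 called 290 lower and 237 higher, where all 6 libraries gave 0 and 2. With CPM over exon length, 6 of the 10 members kept their place in the order in Flox control and 3 in Celf1 AKO. With adipocyte markers as the reference, the relative difference of Mtfp1 was -1.40.

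The replicate numbers are shared between the groups. Same-numbered libraries did not deviate together in every pair (correlations of 0.0709, -0.00842 and 0.273), and not every library correlated best with its own number. With 3 libraries per group these correlations cannot settle whether the libraries were paired, so pairing is not known. With the replicate block, 0 of the 9 members were called, Mief2 had a log2 fold change of -0.73, Celf1 had an edgeR adjusted p of 0.0476 (0.122 without the block), and 3 genes were called lower and 9 higher over all genes. In the main fit, which has no block, the 95% intervals of Dnm1l, Mff, Fis1, Mfn1, Mfn2, Opa1 and Oma1 all held 0, and those of Mief1 and Mief2 lay below 0.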

Other observations

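Ratios between functional partners within a library, chosen after the values were seen and given without a test, do not depend on scaling between libraries, but their level depends on the gene length used. In FPKM, Mief2 over Mief1 was 0.712, 0.903 and 0.969 in Celf1 AKO replicates 1, 2 and 3 and 1.16, 1.16 and 1.11 in Flox control, lower in every knockout library. With CPM over exon length, Mief2 stood above Mief1 in both groups, at 10.3 against 6.07 in Flox control and 6.24 against 4.88 in Celf1 AKO. Mtfp1 over Dnm1l was 0.190, 0.204 and 0.254 against 0.4995, 0.569 and 0.575. The protease Oma1 over its substrate Opa1 was 0.337, 0.386 and 0.354 against 0.290, 0.239 and 0.244, higher in every knockout library, although neither gene alone passed the test. Mfn1 over Mfn2 was 0.173, 0.177 and 0.227 against 0.203, 0.178 and 0.222, with overlapping groups.

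The largest negative log2 fold change in the further lists was that of Pld6, a mitochondrial outer membrane phospholipase that promotes fusion, at -1.01, with an unadjusted edgeR p of 0.116. It lies outside the rule for named genes and was named after its value was seen.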
